A study of Homo sapiens with 60 samples.

Results

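Thioridazine and LY294002, small molecules with different known targets, were set against each other in SW1783, an established human astrocytoma cell line, by RNA sequencing after 24 h at 10 µM. Each drug has 3 libraries, and these 6 libraries of the 60 in the series were chosen by their treatment labels alone. Both groups carry the same code set in the labels, as do 3 wortmannin libraries (10 µM, 24 h), while the 3 vehicle libraries (DMSO, 24 h) carry another. A shift between code sets therefore cannot be told apart from a drug effect in any comparison with vehicle, and wortmannin and vehicle serve below as context only. Vehicle was 0.1% DMSO by its sample labels, while the text for the whole series puts DMSO at 2%, and the drug samples record no solvent. The labels do not say whether libraries of a group came from separate cultures grown apart. P-values therefore measure only the spread between libraries of a group, estimated over all 60 libraries, and that spread may be technical.

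Thioridazine is an antipsychotic of the phenothiazine class that blocks dopamine and other amine receptors. It is also a cationic amphiphilic drug, a lipophilic weak base of the kind that is trapped in the acid lumen of lysosomes, where such drugs are known to hold back cholesterol and phospholipids. LY294002 is a reversible inhibitor of PI3-kinases, which also inhibits mTOR and a few other kinases and binds BET bromodomains. PI3-kinase signals through AKT, and AKT keeps FOXO transcription factors out of the nucleus, so FOXO targets are the classical readout of its inhibition. Sterol supply is sensed in the endoplasmic reticulum: when its membrane runs low in cholesterol, SREBP factors are released and switch on the genes of sterol synthesis and uptake.

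Library totals were 27.21, 23.44 and 26.35 M counts with thioridazine, against 24.05, 23.60 and 26.34 M counts with LY294002. Mitochondrial transcripts made up 4.64 to 5.43% of the counts with thioridazine and 6.03 to 6.42% with LY294002, and the 50 most abundant genes took 14.9 to 15.6% and 17.4 to 17.5% of the counts. Of 14 astroglial markers 9 were tested. GFAP, S100B, AQP4, ALDH1L1 and FABP7 had at most 8 counts over the 3 libraries of either group, GFAP 8 with thioridazine and 4 with LY294002, while VIM, CD44, GJA1, SOX9 and SLC1A3 were well expressed. One library outside these groups, replicate 1 of the high peony dose, had counts for 37765 genes, against 23172 to 23614 genes in the 6 libraries compared. That library entered the estimate of the spread, and a fit of the 2 groups alone is given with the other alternatives in the closing section.

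Of 17919 genes tested, 3495 (19.5%) were higher and 3664 (20.4%) lower with thioridazine than with LY294002 at an adjusted p under 0.05 (edgeR's quasi-likelihood test, Benjamini-Hochberg adjustment, n = 3 libraries each). At least 2-fold differences were 622 higher (3.47%) and 287 lower (1.60%). These shares of all genes are the background for the counts of list members given below for this pair. The median log2 fold change of all genes was -0.025, with quartiles of -0.24 and 0.20. In 4219 genes (23.5%) every thioridazine library lay above every LY294002 library, and in 4646 (25.9%) every one lay below. Against vehicle 4406 genes (24.6%) were higher and 4269 (23.8%) lower with thioridazine, and 3476 (19.4%) were higher and 3562 (19.9%) lower with LY294002, with the same vehicle libraries in both comparisons. Levels are given below in CPM, counts scaled to a common library size with TMM factors, and differences as log2 fold changes of thioridazine over LY294002 with their SE unless another pair is named.

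The genes of cholesterol synthesis were higher with thioridazine nearly throughout. Of 21 enzymes tested, 19 were higher with thioridazine and 0 lower, 14 of them by at least 2-fold, where 19.5% of all genes were called higher, 20.4% lower and 3.47% higher by at least 2-fold. The members' median log2 fold change was 1.31, against -0.025 over all genes, and GGPS1 and PMVK, at 0.11 and 0.20, did not pass the test. GGPS1 makes geranylgeranyl diphosphate, off the branch that leads to sterols.

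HMGCS1, the synthase that makes HMG-CoA, had 313, 312 and 295 CPM with thioridazine, against 65.1, 62.1 and 64.7 CPM with LY294002. The groups stood far apart, and the LY294002 libraries were near the vehicle level of 63.7 ± 1.92 CPM (SD, n = 3). Its log2 fold change was 2.26 ± 0.050 (adjusted p = 1.56e-39). MSMO1, which removes methyl groups from the sterol ring, had 235, 236 and 254 CPM with thioridazine, against 56.3, 56.9 and 57.3 CPM with LY294002. DHCR7, the reductase of the last step to cholesterol, had 154, 153 and 156 CPM with thioridazine, against 35.9, 38.9 and 39.8 CPM with LY294002. In both genes no library of one group came near the other group, with log2 fold changes of 2.09 ± 0.062 for MSMO1 and 2.01 ± 0.046 for DHCR7. FDFT1 (squalene synthase), SQLE (squalene epoxidase) and CYP51A1 (lanosterol demethylase) were higher by 1.41 ± 0.041, 1.35 ± 0.040 and 1.41 ± 0.042 on the log2 scale. Against vehicle 21 of the 21 enzymes were higher and 0 lower with thioridazine, while 7 were higher and 2 lower with LY294002, with medians of 1.37 and 0.011. Of all genes 24.6% were higher and 23.8% lower than vehicle with thioridazine, and 19.4% and 19.9% with LY294002.

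Among 18 tested genes of sterol sensing, uptake and transfer, 13 were higher and 2 lower with thioridazine, with a median of 0.52. INSIG1 (chr7:155297776-155310235, plus strand), the membrane protein that holds SREBP in the endoplasmic reticulum and is itself an SREBP target, had 914, 929 and 929 CPM with thioridazine, against 151, 149 and 155 CPM with LY294002. All 3 thioridazine libraries were about as high as each other and far above LY294002, by 2.61 ± 0.053 on the log2 scale (adjusted p = 1.82e-41). MYLIP, a ubiquitin ligase that is switched on by the sterol sensor LXR, went the other way, with 6.12, 5.89 and 5.52 CPM with thioridazine, against 14.6, 14.2 and 13.6 CPM with LY294002. The MYLIP groups did not overlap, and the log2 fold change was -1.27 ± 0.096 (adjusted p = 1.32e-16).

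NPC1, which carries cholesterol out of the lysosome, had 435, 426 and 463 CPM with thioridazine, against 149.6, 147 and 146 CPM with LY294002. STARD4, a cytosolic sterol carrier, had 106, 105 and 113 CPM with thioridazine, against 41.9, 35.8 and 36.1 CPM with LY294002. Both were higher in all 3 thioridazine libraries, by 1.58 ± 0.048 and 1.51 ± 0.066. SREBF2, the gene of the SREBP factor for sterol synthesis, was higher by 0.82 ± 0.039, at 211 ± 5.53 CPM with thioridazine and 119 ± 1.47 CPM with LY294002 (SD, n = 3 each). Of 11 LXR targets tested, 3 were higher and 3 lower (27.3% each), not far from the 19.5% and 20.4% of all genes. ABCA1, the pump that exports cholesterol, had 24.4, 24.3 and 25.1 CPM with thioridazine, against 44.0, 38.8 and 35.2 CPM with LY294002, and its groups did not overlap at a log2 fold change of -0.67 ± 0.086. LPCAT3 was lower, at -0.27, and SMPDL3A and CYP27A1 were higher by 1.01 and 1.13, and APOE was higher by 0.38 (adjusted p = 0.00335), at 0.26 and not called without LY294002 replicate 1.

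The SREBF2 promoter is shown because that gene is the hub of the pathway and its own promoter holds a sterol element. The capitals mark the letters TCACNCCAC, searched on both strands, 133 bases before the gene's start in RefSeq (GRCh38.p14, chr22:41832955-41833104, plus strand; the 150 bases before the start).
SREBF2: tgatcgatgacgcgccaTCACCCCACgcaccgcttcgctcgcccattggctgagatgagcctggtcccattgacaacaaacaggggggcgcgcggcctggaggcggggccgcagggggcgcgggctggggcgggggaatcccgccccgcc
Those letters were found in 1.14% of the 12143 promoters matched to tested genes (300 bases each, 250 before to 50 after the start) and in 0 of the 16 matched promoters of cholesterol enzymes. A match is a description of the letters only.

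Genes of fatty acid synthesis and lipid droplets were higher as a rule: 16 of 21 tested were higher with thioridazine and 3 lower, 7 of them higher by at least 2-fold, with a median of 0.63. SCD, the desaturase that makes oleate, had 1364, 1386 and 1421 CPM with thioridazine, against 260.4, 239 and 231 CPM with LY294002. FASN, the fatty acid synthase, had 871, 819 and 932 CPM with thioridazine, against 300.3, 295 and 283 CPM with LY294002. FADS2, which desaturates polyunsaturated fatty acids, had 293, 292 and 299 CPM with thioridazine, against 73.8, 73.8 and 80.3 CPM with LY294002. In each of these the groups were separate, with log2 fold changes of 2.51 ± 0.047 for SCD, 1.58 ± 0.072 for FASN and 1.95 ± 0.050 for FADS2. FADS1 was higher by 1.14 ± 0.047. LPIN1, a phosphatidate phosphatase, and PLIN2, which coats lipid droplets, were higher by 1.18 ± 0.047 and 1.19 ± 0.056. ACACB, DGAT1 and PLIN3 were lower, at -0.38, -0.26 and -0.25 on the log2 scale.

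**Figure D1:**
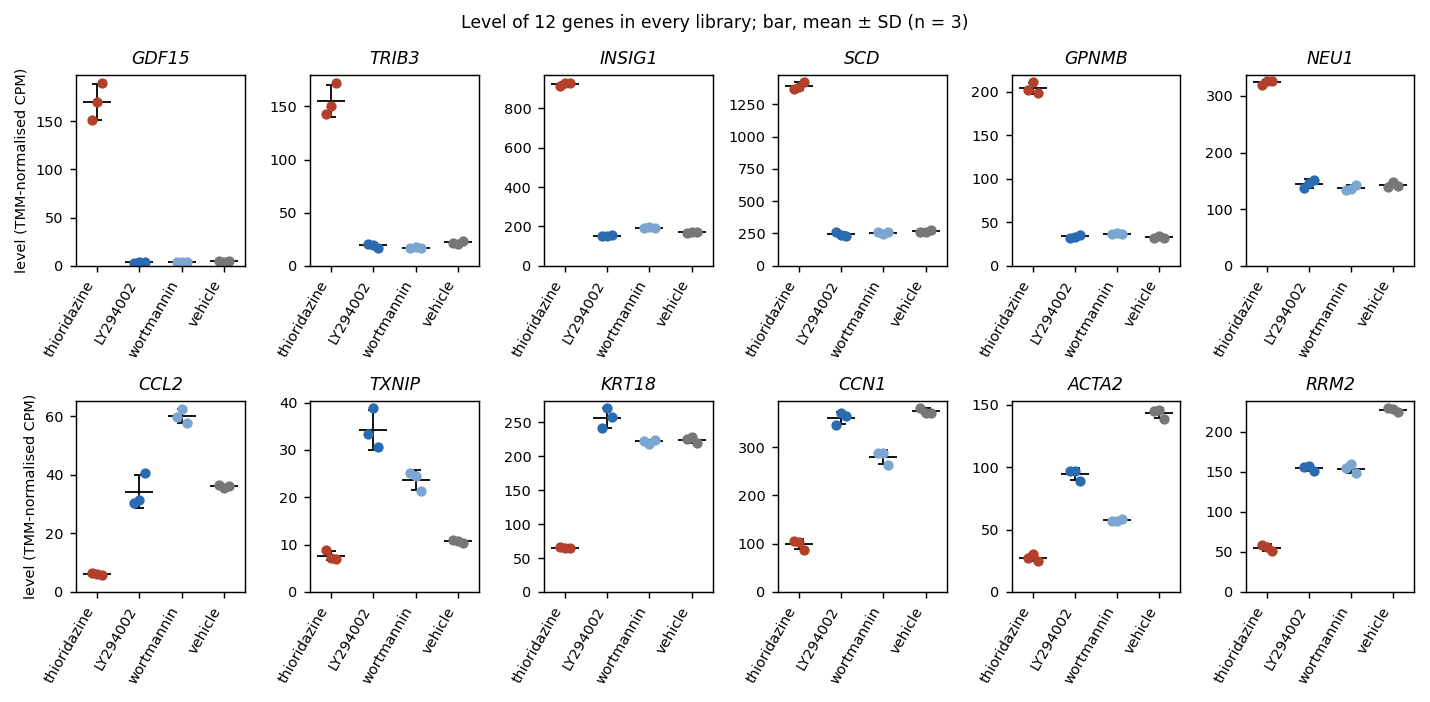
Level in TMM-normalised CPM (vertical axes, from 0) of 12 genes in each of 3 libraries with thioridazine, LY294002, wortmannin and vehicle, with the mean and SD as bars. In the upper row the thioridazine libraries stand above the 3 other groups, and in the lower row they lie below them. TXNIP is high with both PI3-kinase inhibitors and low with thioridazine and vehicle.

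Lysosomal genes were mostly higher with thioridazine. Of 34 tested lysosomal hydrolases and membrane proteins, 23 were higher with thioridazine, 2 were lower and 9 did not pass, with a median of 0.38. Most differences were small: 3 members reached 2-fold. The 2 lower members, CTSC at -0.20 and GUSB at -0.097, differed little, and the count of 2 was 1 when any library but thioridazine replicate 2 was left out.

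GPNMB (chr7:23235967-23275108, plus strand), a glycoprotein of lysosomes and melanosomes, had 202, 211 and 199 CPM with thioridazine, against 32.4, 33.5 and 35.2 CPM with LY294002. It was the widest difference of the list, 2.60 ± 0.049 on the log2 scale (adjusted p = 1.04e-42), and the LY294002 libraries were near the vehicle mean of 32.8 ± 1.48 CPM (SD, n = 3). NEU1, the sialidase that trims lysosomal glycoproteins, had 319, 326 and 327 CPM with thioridazine, against 137, 146 and 152 CPM with LY294002. CLCN7, the chloride-proton exchanger of the lysosome membrane, had 181, 174 and 186 CPM with thioridazine, against 81.7, 87.8 and 87.0 CPM with LY294002. Both were about 2-fold apart without overlap, at 1.16 ± 0.046 and 1.08 ± 0.049. The proteases CTSL and CTSD were higher by 0.87 ± 0.053 and 0.70 ± 0.041. CTSD was higher than vehicle with both drugs, by 1.04 ± 0.041 with thioridazine (adjusted p = 2.72e-28) and 0.34 ± 0.041 with LY294002 (adjusted p = 1.32e-09). Over the list 32 of 34 were higher and 1 lower than vehicle with thioridazine, and 23 higher and 2 lower with LY294002, with medians of 0.66 and 0.23. Of all genes 24.6% were higher and 23.8% lower than vehicle with thioridazine, and 19.4% and 19.9% with LY294002.

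Of 22 tested subunits of the V-ATPase, the proton pump that acidifies lysosomes, 15 were higher and 1 lower with thioridazine, with a median of 0.31. ATP6V0D2, a subunit known from osteoclasts and macrophages, gave the widest fitted difference of the genes named here. It had 6.84, 9.44 and 9.70 CPM with thioridazine, against 0.0418, 0.0859 and 0.115 CPM with LY294002. The LY294002 libraries held 1, 2 and 3 counts, so the ratio of 105 over the summed counts carries a 95% exact binomial interval of 48.0 to 287, which covers counting error only. ATP6V1B2, the B subunit of the catalytic head, had 176, 178 and 178 CPM with thioridazine, against 86.4, 83.6 and 90.7 CPM with LY294002, apart without overlap and higher by 1.03 ± 0.042. ATP6V1C1, ATP6V1F, ATP6V1G1 and ATP6V1E1 were higher by 0.86 ± 0.038, 0.61 ± 0.057, 0.59 ± 0.061 and 0.53 ± 0.054.

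TFEB and its relatives switch on lysosomal genes through a promoter element called CLEAR, and they are held in check at the lysosome by the Rag GTPases and folliculin. Of 23 tested genes of this loop and of autophagy, 13 were higher and 5 lower with thioridazine, 6 higher by at least 2-fold. RRAGC, a Rag GTPase, had 136, 134 and 135 CPM with thioridazine, against 49.8, 47.1 and 52.1 CPM with LY294002. FLCN, folliculin itself, had 74.6, 73.4 and 75.9 CPM with thioridazine, against 32.9, 34.9 and 36.4 CPM with LY294002. The autophagy receptor SQSTM1 had 1549.5, 1559 and 1633 CPM with thioridazine, against 518, 565 and 579 CPM with LY294002. The groups were apart in these 3 genes, at 1.44 ± 0.055 for RRAGC, 1.10 ± 0.057 for FLCN and 1.51 ± 0.044 for SQSTM1. RRAGD, another Rag GTPase, was higher by 3.11 ± 0.30. FNIP1, a partner of folliculin, WIPI1, an early autophagy protein, and MAP1LC3B, the LC3 that coats autophagosomes, were higher by 1.08 ± 0.055, 1.09 ± 0.048 and 0.58 ± 0.044. The transcripts of TFEB and MITF were lower, at -0.29 ± 0.086 and -0.55 ± 0.055, and that of TFE3 did not pass at -0.035 ± 0.042.

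The promoters of LAMP1, the main glycoprotein of the lysosome membrane, and MCOLN1, its calcium channel, are shown because both hold the core of the CLEAR element. The capitals mark TCACGTGA, which reads the same on both strands, in the 150 bases before the RefSeq start (GRCh38.p14; LAMP1 chr13:113297089-113297238, plus strand; MCOLN1 chr19:7522474-7522623, plus strand).
LAMP1: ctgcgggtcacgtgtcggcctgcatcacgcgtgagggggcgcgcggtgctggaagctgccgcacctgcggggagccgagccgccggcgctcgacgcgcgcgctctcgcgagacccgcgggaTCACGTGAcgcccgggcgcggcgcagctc
MCOLN1: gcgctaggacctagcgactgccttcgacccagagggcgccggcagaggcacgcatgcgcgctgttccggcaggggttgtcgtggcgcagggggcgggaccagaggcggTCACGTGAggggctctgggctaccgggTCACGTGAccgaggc
LAMP1 had 797, 828 and 774 CPM with thioridazine, against 617, 653 and 680.5 CPM with LY294002, higher by 0.30 ± 0.045 without overlap. MCOLN1 had 36.6, 38.5 and 35.9 CPM with thioridazine, against 21.96, 24.5 and 25.3 CPM with LY294002, higher by 0.63 ± 0.068 without overlap. TCACGTGA was found in 5 of 24 matched lysosomal promoters (20.8%) and 2 of 16 V-ATPase promoters (12.5%), against 1.80% of all matched promoters. It was in 0 of 20 matched promoters of the TFEB, Rag and autophagy list and 0 of 17 of the sphingolipid genes below. Of the 5 lysosomal genes with the element, GAA, whose promoter holds 2 matches, did not pass, at 0.097. TCACGTGA was in 1.27% of the promoters of genes at least 2-fold higher with thioridazine.

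Sphingolipids are broken down in the lysosome as well. Of 23 tested genes of their synthesis and breakdown, 12 were higher and 2 lower, with a median of 0.18. The count of 2 lower was 1 without thioridazine replicate 3, LY294002 replicate 1 or LY294002 replicate 3. CERT1, which carries ceramide to the Golgi, had 107, 100.1 and 109 CPM with thioridazine, against 44.0, 41.7 and 41.4 CPM with LY294002. ASAH1, the acid ceramidase, had 143, 144 and 154 CPM with thioridazine, against 77.5, 75.8 and 84.6 CPM with LY294002. Both were higher in every thioridazine library, by 1.31 ± 0.047 and 0.89 ± 0.038. PSAP, the precursor of the saposins, and KDSR and SPTLC2, of the first steps of synthesis, were higher by 0.58 ± 0.045, 0.71 ± 0.037 and 0.55 ± 0.054. SMPD1, the acid sphingomyelinase that cationic amphiphilic drugs are known to displace, did not pass, at 112 ± 2.32 CPM with thioridazine and 109 ± 6.05 CPM with LY294002 (SD, n = 3 each), and its difference had a 95% interval of -0.054 to 0.13 on the log2 scale.

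Genes of the integrated stress response, in which phosphorylation of the initiation factor eIF2 raises translation of ATF4, were higher with thioridazine throughout. Of 19 tested effectors 19 were higher and 0 lower, 12 of them by at least 2-fold, with a median of 1.27. GDF15 (chr19:18374731-18389176, plus strand), a stress-induced hormone that reduces appetite, had 152, 170.2 and 189 CPM with thioridazine, against 3.26, 3.44 and 3.68 CPM with LY294002. The lowest thioridazine library was far above the highest LY294002 library, and the log2 fold change was 5.62 ± 0.10 (adjusted p = 8.23e-43). TRIB3, a pseudokinase that binds AKT, had 143, 151 and 172 CPM with thioridazine, against 20.8, 19.5 and 16.8 CPM with LY294002. NUPR1, a small chromatin protein of stress, had 94.6, 109 and 119 CPM with thioridazine, against 15.9, 18.5 and 18.3 CPM with LY294002. Neither gene overlapped between the drugs, at 3.03 ± 0.096 and 2.61 ± 0.088. ATF4 itself had 307, 330.3 and 351 CPM with thioridazine, against 138, 139.6 and 133 CPM with LY294002, higher by 1.27 ± 0.051. DDIT3, the death-linked factor CHOP, was higher by 1.88 ± 0.077, and ATF3 by 1.51 ± 0.15. PPP1R15A, which reverses the phosphorylation of eIF2, and XPOT, the exporter of tRNA, were higher by 1.298 ± 0.051 and 1.29 ± 0.035. EIF4EBP1, the translation repressor that mTOR phosphorylates, was higher by 0.61 ± 0.076.

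Of 30 tested genes of amino acid synthesis, transport and tRNA charging, which ATF4 is known to drive, 28 were higher and 1 lower, with a median of 0.80. PSAT1, of serine synthesis, had 217, 215 and 235 CPM with thioridazine, against 85.4, 86.4 and 86.7 CPM with LY294002. SLC7A5, the carrier of large neutral amino acids, had 454, 443 and 470.4 CPM with thioridazine, against 175, 198 and 200.1 CPM with LY294002. WARS1, the tryptophan tRNA synthetase, had 553, 562 and 562 CPM with thioridazine, against 237, 254 and 247 CPM with LY294002. The groups were separate in all 3, with log2 fold changes of 1.37 ± 0.049, 1.253 ± 0.045 and 1.18 ± 0.039. The synthetases GARS1, IARS1 and YARS1 were higher by 1.10 ± 0.035, 0.97 ± 0.037 and 0.82 ± 0.031, and the cystine carrier SLC7A11 by 0.94 ± 0.065. ALDH18A1, of proline synthesis, was the member that was lower, at -0.26 ± 0.036, and SLC38A2 did not pass at -0.058 ± 0.049. The letters TGATGNAAT, searched as an ATF4 element, were in 0 of 23 matched promoters of this list. They were in 0 of 17 of the integrated stress effectors, against 0.461% of all matched promoters. Of 22 tested chaperones and folding genes of the endoplasmic reticulum, 20 were higher and 0 lower, but 0 reached 2-fold and the median was 0.28. HSPA5, the chaperone BiP, had 4433, 4658 and 4947 CPM with thioridazine, against 2842, 2905 and 3004 CPM with LY294002, apart without overlap at 0.68 ± 0.053. EDEM1, SEL1L and HYOU1 were higher by 0.74 ± 0.053, 0.53 ± 0.052 and 0.49 ± 0.045.

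**Figure D2:**
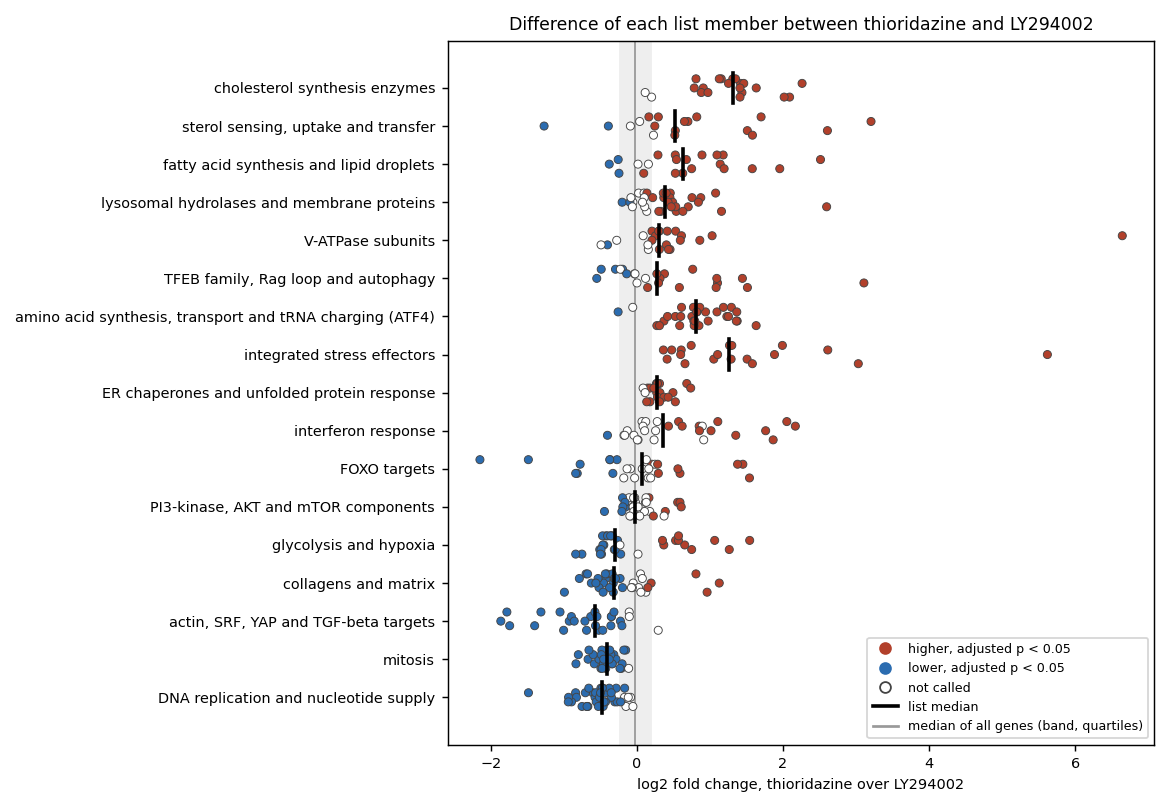
Log2 fold change of thioridazine over LY294002 (horizontal axis) for each tested member of 17 gene lists, one point per gene, red where higher and blue where lower at an adjusted p under 0.05, with the list median as a black bar and the median and quartiles of all genes as the grey line and band. The medians of the sterol, fatty acid, lysosome, V-ATPase, TFEB, amino acid, stress, chaperone and interferon lists lie to the right of the band. Those of the glycolysis, matrix, actin, mitosis and replication lists lie to the left. Those of the FOXO and PI3-kinase lists lie within it, at 0.072 and -0.021.

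The FOXO targets, the readout of PI3-kinase inhibition, were called in both directions between the drugs. Of 27 tested, 8 were higher (29.6%) and 9 lower (33.3%) with thioridazine than with LY294002, with a median of 0.072. Of all genes 19.5% were higher and 20.4% lower between these drugs. Against vehicle 17 were higher and 4 lower with thioridazine, where 24.6% and 23.8% of all genes were, and 18 were higher and 3 lower with LY294002, where 19.4% and 19.9% were. The medians were 0.44 with thioridazine and 0.52 with LY294002. The members differed widely between the drugs all the same, from -2.15 to 1.54.

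TXNIP (chr1:145992435-145996600, minus strand), which binds thioredoxin and restrains glucose uptake, had 8.81, 7.27 and 6.94 CPM with thioridazine, against 33.2, 38.8 and 30.6 CPM with LY294002. All LY294002 libraries were far above all thioridazine libraries, wortmannin stood between at 25.1, 24.5 and 21.2 CPM, and vehicle had 10.97, 10.7 and 10.3 CPM. The log2 fold change was -2.15 ± 0.090 (adjusted p = 3.56e-27), with -0.47 ± 0.10 for thioridazine (adjusted p = 8.87e-05) and 1.68 ± 0.085 for LY294002 (adjusted p = 1.68e-22) against vehicle. PDK4, which restrains pyruvate use, was lower, at -1.49 ± 0.37. BNIP3, a mitophagy receptor that hypoxia also raises, had 52.4, 51.9 and 52.1 CPM with thioridazine, against 91.2, 93.1 and 95.4 CPM with LY294002, lower, at -0.84 ± 0.055 without overlap. Other members ran the opposite way. FBXO32, the ubiquitin ligase atrogin of muscle wasting, had 258, 252 and 245 CPM with thioridazine, against 85.9, 85.7 and 87.8 CPM with LY294002. IGFBP1, which binds insulin-like growth factors, had 125, 125 and 148 CPM with thioridazine, against 41.4, 47.3 and 56.7 CPM with LY294002. TSC22D3, a leucine zipper protein that glucocorticoids also raise, had 34.6, 34.9 and 38.3 CPM with thioridazine, against 13.2, 14.4 and 13.9 CPM with LY294002. These 3 were higher with thioridazine in every library, by 1.54 ± 0.050, 1.45 ± 0.072 and 1.38 ± 0.078. IRS2, the adaptor of the insulin receptor, was higher by 0.59 ± 0.060, at 82.0 ± 2.77 CPM with thioridazine, 54.5 ± 2.47 CPM with LY294002 and 27.2 ± 1.08 CPM with vehicle (SD, n = 3 each).

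A few FOXO targets were nearly level between the drugs. HBP1, a repressor of cell cycle genes, had 74.0, 71.6 and 71.7 CPM with thioridazine, against 70.6, 67.4 and 68.8 CPM with LY294002, and 37.8, 36.3 and 33.3 CPM in vehicle. The thioridazine libraries lay just above the LY294002 libraries without overlap, and both groups lay above vehicle. The difference between the drugs of 0.072 ± 0.050 did not pass, with a 95% interval of -0.028 to 0.17. INSR, the insulin receptor, had 24.9, 25.5 and 25.6 CPM with thioridazine, against 27.1, 26.1 and 24.5 CPM with LY294002, overlapping, with an interval of -0.16 to 0.093. RICTOR, of the mTOR complex that phosphorylates AKT, overlapped too, with an interval of -0.043 to 0.30. These intervals leave room for small differences in either direction and do not show that the drugs act alike on these genes.

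The TXNIP promoter is shown because this gene gave the widest split in the list and holds a forkhead element. The capitals mark GTAAACA, the reverse strand of the searched letters TGTTTAC, 124 bases before the RefSeq start (GRCh38.p14, chr1:145996580-145996729, minus strand; the 150 bases before the start).
TXNIP: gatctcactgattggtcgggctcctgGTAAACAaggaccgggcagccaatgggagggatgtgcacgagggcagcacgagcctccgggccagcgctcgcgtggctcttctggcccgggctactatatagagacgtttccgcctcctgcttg
TGTTTAC was found on either strand in 6 of 24 matched promoters of FOXO targets (25.0%), namely TXNIP, HBP1, DEPP1, BCL2L11, FOXO4 and YPEL3, against 2.35% of all matched promoters. Those 6 genes differed between the drugs by -2.15, 0.072, -0.14, -0.37, 0.19 and -0.78 on the log2 scale. Genes with the element were thus found at both wide and small differences.

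**Figure D3:**
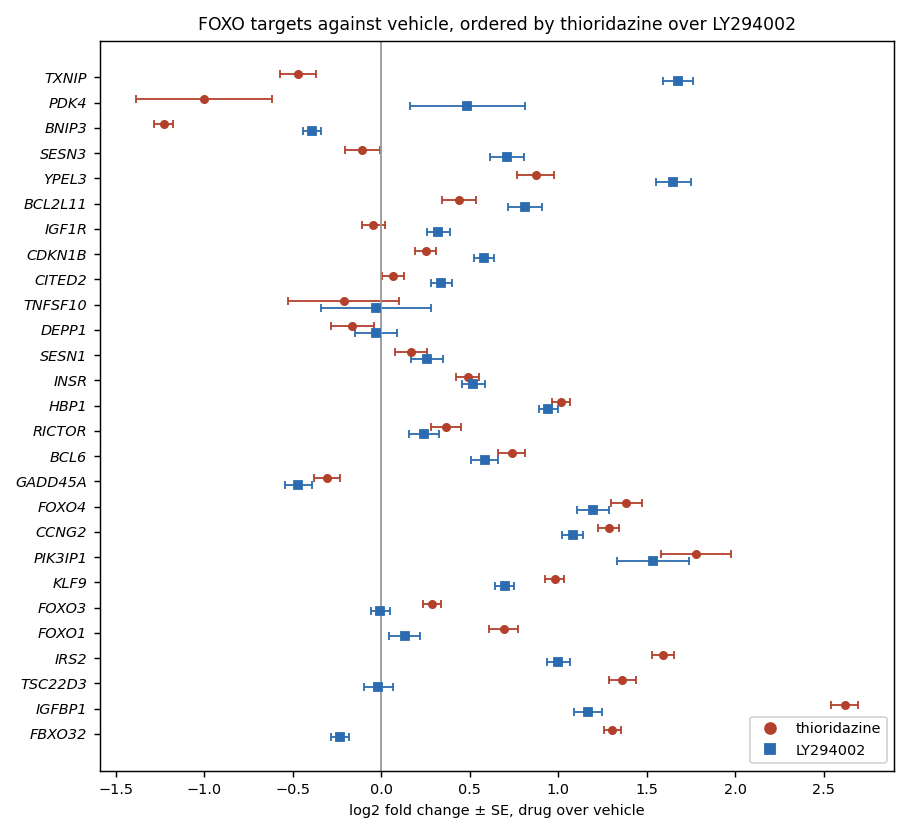
Log2 fold change against vehicle with its SE (horizontal axis) of the 27 tested FOXO targets, with thioridazine as circles and LY294002 as squares, ordered by the difference between the drugs. TXNIP at the top lies at -0.47 with thioridazine and 1.68 with LY294002, FBXO32 at the foot at 1.31 and -0.23, and genes in the middle such as HBP1 lie nearly together.

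Of 29 tested PI3-kinase, AKT and mTOR components, 6 were higher and 6 lower, near the 19.5% and 20.4% of all genes, and 17 did not pass, with a median of -0.021. TSC1, the brake on mTOR, had 54.9, 54.0 and 54.0 CPM with thioridazine, against 38.1, 36.9 and 35.7 CPM with LY294002, higher without overlap by 0.56 ± 0.057. PIK3C2A, a class II PI3-kinase, was higher by 0.39 ± 0.079, and AKT1 and RPS6KB1, the S6 kinase, were lower, at -0.20 ± 0.034 and -0.21 ± 0.048. Of 13 tested genes of other proteins that LY294002 is known to bind, 4 were higher and 4 lower (30.8% each, beside the same shares of all genes). The count of higher genes was 2 when thioridazine replicate 1 or 3 was left out. The bromodomain gene BRD2 had 184, 190.5 and 185 CPM with thioridazine, against 261, 262 and 259 CPM with LY294002, lower, at -0.48 ± 0.056, and BRD3 was lower, at -0.30 ± 0.056. Against vehicle BRD2 was -0.23 ± 0.056 with thioridazine (adjusted p = 3.91e-04) and 0.25 ± 0.056 with LY294002 (adjusted p = 2.92e-04). The kinase genes PIM3 and CSNK2A2 were higher by 0.44 ± 0.058 and 0.15 ± 0.046. ATM was higher by 0.24 ± 0.090 (adjusted p = 0.0336), a call lost without thioridazine replicate 1 or 3, at 0.23 and 0.21, or LY294002 replicate 2 or 3, at 0.17 and 0.19.

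Receptors through which thioridazine acts in the brain had low counts or were below the filter in many cases. Of 26 receptor, channel and calmodulin genes listed, 15 passed the filter on low counts. Of these, 4 were higher and 4 lower with thioridazine (26.7% each), where 19.5% and 20.4% of all genes were. DRD2, the dopamine receptor that antipsychotics block, had 1.54, 1.55 and 1.23 CPM with thioridazine, against 0.418, 0.516 and 0.498 CPM with LY294002. It was higher by 1.58 ± 0.27 (adjusted p = 1.93e-06) at a low level, and DRD1 did not pass, at 1.51 ± 0.135 and 1.52 ± 0.219 CPM (SD, n = 3 each). HTR7, a serotonin receptor, had 18.8, 18.5 and 19.9 CPM with thioridazine, against 11.6, 11.99 and 13.4 CPM with LY294002, higher by 0.63 ± 0.068 without overlap. HTR2A was higher by 0.43 ± 0.13 (adjusted p = 0.00576), which was lost without thioridazine replicate 2, at 0.32, or LY294002 replicate 3, at 0.34. ADRA1D was lower, at -0.33 ± 0.11, which was lost at -0.23 without thioridazine replicate 3 or LY294002 replicate 2. HRH1, the histamine receptor, had 36.7, 38.1 and 32.8 CPM with thioridazine, against 40.2, 39.8 and 35.8 CPM with LY294002. The groups overlapped and the difference did not pass, with an interval of -0.26 to 0.049. ADRA1B, ADRA2A, CHRM2 and CHRM3 did not pass either, at log2 fold changes of -0.020, -0.84, 0.48 and -0.0021.

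Phenothiazines also bind calmodulin, a calcium sensor. CALM3 had 230.1, 227 and 217 CPM with thioridazine, against 354, 382 and 363 CPM with LY294002. All 3 thioridazine libraries were lower, at -0.70 ± 0.047 (adjusted p = 8.34e-19). CALM2 was lower, at -0.29 ± 0.054. MALT1, a protease that phenothiazines inhibit, was higher by 0.17 ± 0.049 (adjusted p = 0.00301), which was lost without LY294002 replicate 2, at 0.12.

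Proliferation genes were lower with thioridazine than with LY294002, and none was called higher. Of 30 tested mitosis genes 0 were higher and 29 lower, where 20.4% of all genes were called lower, with a median of -0.41. Of 40 tested genes of DNA replication and nucleotide supply 0 were higher and 35 lower, with a median of -0.48. Against vehicle the mitosis medians were -0.67 with thioridazine and -0.22 with LY294002, and the replication medians -0.79 and -0.32. In bulk RNA, fewer cells in a phase and less RNA per cell cannot be told apart.

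RRM2 (chr2:10120698-10131419, plus strand), the subunit of ribonucleotide reductase made in S phase, had 59.0, 55.8 and 50.9 CPM with thioridazine, against 156, 157 and 150.4 CPM with LY294002. The groups were separate, with 229, 228 and 224 CPM in vehicle above both, and the difference was -1.49 ± 0.043 (adjusted p = 3.43e-34). UHRF1, which keeps up DNA methylation, had 33.3, 30.5 and 30.1 CPM with thioridazine, against 59.8, 60.6 and 59.9 CPM with LY294002. TK1, the thymidine kinase, had 37.7, 33.7 and 34.3 CPM with thioridazine, against 60.9, 67.9 and 68.2 CPM with LY294002. Both were lower without overlap, at -0.94 ± 0.047 and -0.90 ± 0.064. The helicase subunits MCM3 and MCM4 were lower, at -0.60 ± 0.044 and -0.57 ± 0.036.

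KIF20A, a kinesin of cytokinesis, had 73.2, 70.8 and 71.1 CPM with thioridazine, against 130.4, 131 and 122 CPM with LY294002. AURKB, the kinase of chromosome alignment, had 25.2, 24.4 and 24.2 CPM with thioridazine, against 41.3, 44.4 and 43.1 CPM with LY294002. Each was lower in all 3 thioridazine libraries, at -0.84 ± 0.050 and -0.80 ± 0.062. CCNA2, TOP2A, KIF23 and DLGAP5 were lower, at -0.67 ± 0.052, -0.60 ± 0.038, -0.49 ± 0.043 and -0.49 ± 0.038. Among members called in one direction against vehicle with both drugs, CCNB1, AURKA and ECT2 were nearest between the drugs, at -0.16 ± 0.057, -0.18 ± 0.050 and -0.20 ± 0.041, and the CCNB1 call (adjusted p = 0.0264) was lost without thioridazine replicate 1 or 3, at -0.15 and -0.14, or LY294002 replicate 3, at -0.11. By the same rule the nearest in replication were CDC6, PRIM2 and RFC4, which did not pass, with 95% intervals of -0.18 to 0.0044, -0.25 to 0.0076 and -0.29 to -0.0095.

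The KIF23 promoter is shown as an example of the element that silences mitosis genes in resting cells, known as CHR. The capitals mark TTTGAA, searched on both strands, 55 bases before the RefSeq start (GRCh38.p14, chr15:69414199-69414348, plus strand; the 150 bases before the start).
KIF23: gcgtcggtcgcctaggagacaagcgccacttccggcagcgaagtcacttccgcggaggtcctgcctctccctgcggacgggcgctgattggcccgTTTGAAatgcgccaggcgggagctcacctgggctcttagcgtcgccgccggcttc
TTTGAA was found in 17 of 24 matched mitosis promoters (70.8%), against 10.1% of all matched promoters and 12.8% of those of genes at least 2-fold lower with thioridazine. KIF23, which bundles the microtubules of the midbody, had 81.9, 77.7 and 69.7 CPM with thioridazine, against 108, 112 and 103 CPM with LY294002, without overlap.

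Of 24 tested cyclin-dependent kinase inhibitors and p53 targets, 12 were higher and 3 lower. CDKN1A, which encodes p21, had 85.7, 87.4 and 91.0 CPM with thioridazine, against 40.7, 39.3 and 43.3 CPM with LY294002, and 22.7, 25.7 and 22.5 CPM in vehicle. The thioridazine libraries were the highest and vehicle the lowest, with LY294002 between, and the drugs differed by 1.10 ± 0.076 (adjusted p = 8.18e-18). CDKN2B, which encodes p15, was higher by 0.85 ± 0.049, and CDKN2C, which encodes p18, lower, at -0.93 ± 0.045. The death genes TNFRSF10B and PMAIP1 were higher by 0.79 ± 0.044 and 0.80 ± 0.067, and AEN by 0.49 ± 0.060.

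Genes of the glycolytic pathway and of hypoxia were called in both directions. Of 31 tested, 10 were higher (32.3%) and 19 lower (61.3%) with thioridazine, with a median of -0.30. Of all genes 19.5% were higher and 20.4% lower. LDHA, which makes lactate, had 893, 908 and 862 CPM with thioridazine, against 1483, 1456 and 1552 CPM with LY294002. LDHA was lower without overlap, at -0.75 ± 0.038, and so was P4HA1, a collagen prolyl hydroxylase, at -0.50 ± 0.035. NDRG1, a gene of stress and hypoxia, had 168, 199 and 200.2 CPM with thioridazine, against 60.8, 66.1 and 67.7 CPM with LY294002. CA12, a carbonic anhydrase of the cell surface, had 111, 111 and 116 CPM with thioridazine, against 47.5, 45.2 and 48.2 CPM with LY294002. SLC2A3, a glucose carrier of neurons, had 70.8, 80.9 and 79.9 CPM with thioridazine, against 37.1, 36.7 and 36.8 CPM with LY294002. These were higher in every thioridazine library, by 1.54 ± 0.056, 1.26 ± 0.045 and 1.06 ± 0.049. The glycolytic enzymes GPI, PFKP and ENO1, nearest by the rule above, were still lower, at -0.22 ± 0.032, -0.25 ± 0.033 and -0.27 ± 0.049.

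Targets of actin signalling, SRF, YAP and TGF-beta were mostly lower with thioridazine. Of 27 tested targets of actin signalling, SRF, YAP and TGF-beta, 0 were higher (1 without thioridazine replicate 3) and 24 lower with thioridazine, 7 of them by at least 2-fold, where 1.60% of all genes were, with a median of -0.58. ACTA2, smooth muscle actin, had 27.4, 30.5 and 24.5 CPM with thioridazine, against 97.2, 96.9 and 88.6 CPM with LY294002, and 145, 145 and 139 CPM in vehicle. CCN1, a matrix protein that YAP switches on, had 107, 104 and 87.5 CPM with thioridazine, against 347, 371 and 365 CPM with LY294002. The groups were apart in both, with log2 fold changes of -1.78 ± 0.067 and -1.86 ± 0.13. THBS1 (thrombospondin), TPM1 (tropomyosin), CNN2 (calponin) and AXL, a receptor kinase, were lower, at -1.004 ± 0.050, -0.90 ± 0.042, -0.69 ± 0.052 and -0.57 ± 0.036. Against vehicle 21 of the 27 were lower and 0 higher with thioridazine, where 23.8% and 24.6% of all genes were. With LY294002 9 were lower and 8 higher, where 19.9% and 19.4% of all genes were.

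Of 34 tested collagens and matrix genes 5 were higher and 21 lower, with a median of -0.32. COL1A1, the main chain of type I collagen, had 2732, 2635 and 2754 CPM with thioridazine, against 4284, 4554 and 4326 CPM with LY294002, lower without overlap, at -0.70 ± 0.051. COL4A1, COL5A2 and the crosslinking enzyme LOXL1 were lower, at -0.52 ± 0.047, -0.53 ± 0.042 and -0.62 ± 0.052. MMP14, a protease anchored at the cell surface, had 1798, 1746 and 1751 CPM with thioridazine, against 980.1, 1015 and 1030.3 CPM with LY294002. MMP1, the interstitial collagenase, had 131, 141 and 140.1 CPM with thioridazine, against 53.7, 57.8 and 77.0 CPM with LY294002. Both were higher without overlap, by 0.81 ± 0.044 and 1.13 ± 0.073. COL6A2, TNC and POSTN, nearest by the rule above, did not pass, with 95% intervals of -0.067 to 0.11, -0.093 to 0.19 and -0.047 to 0.16. KRT18, a keratin of simple epithelia that was listed as a marker of other cell types, had 65.5, 64.6 and 65.2 CPM with thioridazine, against 241, 271 and 257 CPM with LY294002, lower, at -1.98 ± 0.053 (adjusted p = 1.35e-35), and its partner KRT8 was lower, at -0.91 ± 0.085. The defining epithelial markers EPCAM and CDH1 had at most 10 counts over 3 libraries in either group. The summed level of the 4 epithelial markers was 78.6 to 79.7 CPM with thioridazine and 265.6 to 299 CPM with LY294002, nearly all of it KRT18 and KRT8.

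Among other markers, the neuronal SYT1 was higher by 0.79 ± 0.056 and SNAP25 lower, at -0.37 ± 0.068, and MBP of oligodendrocytes was higher by 0.88 ± 0.10. PTPRC, the CD45 of blood cells, was lower, at -0.82 ± 0.12, with AIF1 at 0 counts in both groups. CSF1R, listed in the same class, went the other way, with 3.17 to 3.90 CPM with thioridazine and 2.22 to 2.92 CPM with LY294002. The endothelial PECAM1 also lay higher, at 1.218 to 2.015 CPM with thioridazine and 0.711 to 0.9585 CPM with LY294002. In all, 4 of 9 tested markers of other cell types were higher and 4 lower (44.4% each). Of 9 tested astroglial markers 4 were higher (44.4%) and 3 lower (33.3%), where 19.5% and 20.4% of all genes were. SLC1A3, the glutamate carrier, and SOX9 were higher by 0.41 ± 0.065 and 0.45 ± 0.055, and VIM and CD44 lower, at -0.41 ± 0.055 and -0.31 ± 0.038. NES was lower, at -0.35 ± 0.11 (adjusted p = 0.0106), a call lost without thioridazine replicate 2, at -0.27, or LY294002 replicate 1, at -0.21. Summed neuronal markers were 84.3 to 89.3 CPM with thioridazine and 61.1 to 64.9 CPM with LY294002, and summed astroglial markers 6593 to 6798 CPM and 8283 to 8811 CPM. Their part in the results was not tested.

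**Figure D4:**
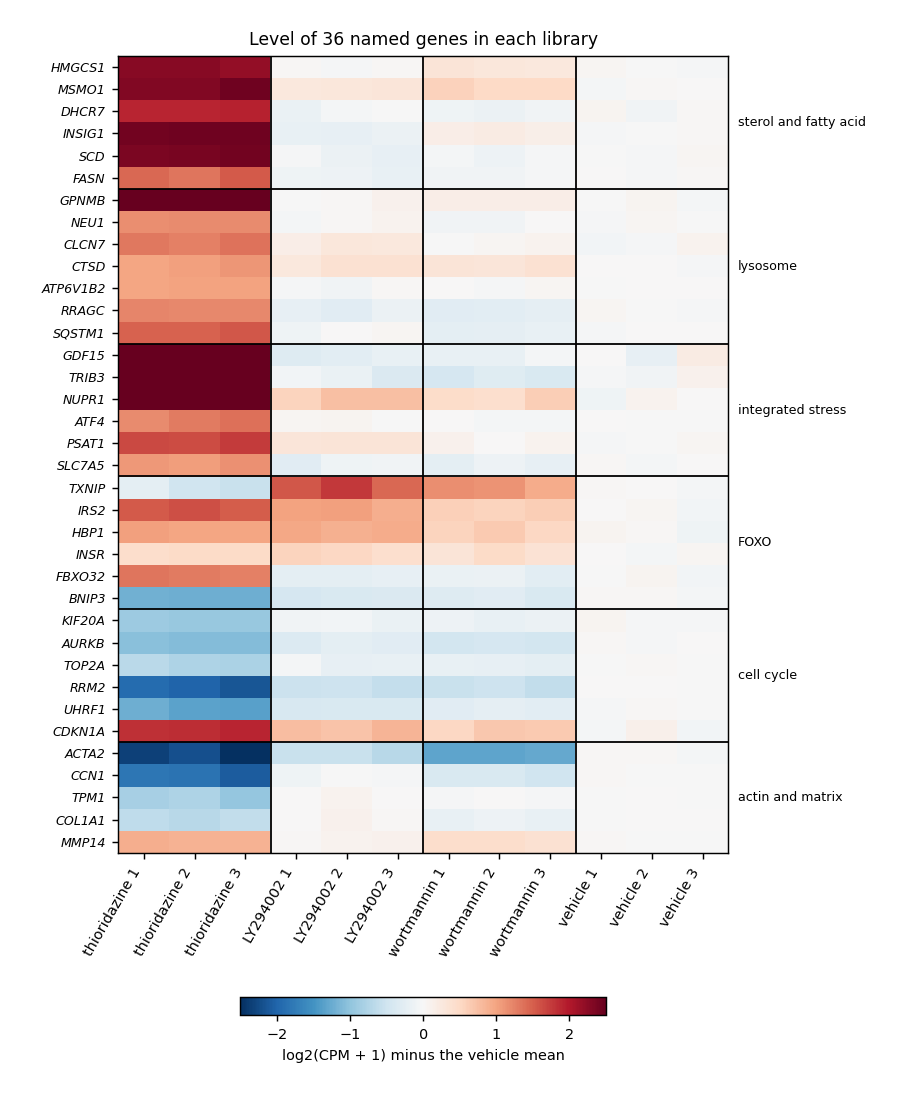
Level of 36 named genes (rows) in each library (columns, 3 each of thioridazine, LY294002, wortmannin and vehicle) as log2(CPM + 1) minus the vehicle mean, with colours running to 2.5 on either side. The thioridazine columns carry the deepest colours outside the FOXO block. Within it TXNIP is red with LY294002 and wortmannin and pale blue with thioridazine, and HBP1 and INSR have much the same shade with thioridazine and LY294002.

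Antioxidant genes were called in both directions. Of 27 tested NRF2 targets 11 were higher (40.7%) and 4 lower (14.8%) with thioridazine, with a median of 0.15. Of all genes 19.5% were higher and 20.4% lower. GCLC, of glutathione synthesis, was higher by 0.56 ± 0.044, and AKR1C1, AKR1C2 and OSGIN1 by 1.09 ± 0.065, 0.94 ± 0.087 and 0.97 ± 0.071, where the 2 AKR1C genes are near copies that can share reads. ABCC3, a conjugate pump, was lower, at -0.68 ± 0.054. Of 17 tested iron and heme genes 10 were higher and 1 lower, with 0 lower without thioridazine replicate 2 or 3 or LY294002 replicate 1 or 3. FTL, the light chain of ferritin, had 3173, 3759 and 4027 CPM with thioridazine, against 1361, 1372 and 1462 CPM with LY294002. FTH1, the heavy chain, had 3428, 3519 and 3495 CPM with thioridazine, against 1919, 2114 and 2069.5 CPM with LY294002. HMOX1, heme oxygenase, had 189.7, 187 and 195 CPM with thioridazine, against 84.5, 83.9 and 76.6 CPM with LY294002. None of these overlapped, and they were higher by 1.39 ± 0.087, 0.77 ± 0.057 and 1.22 ± 0.067. STEAP3, SLC39A14 and ALAS1 were higher by 0.57 ± 0.041, 0.70 ± 0.055 and 0.65 ± 0.038. Of 7 tested genes of metallothioneins and zinc handling 0 were higher and 2 lower (28.6%), the metallothioneins MT2A and MT1E. MT2A had 698, 726 and 840.3 CPM with thioridazine, against 1266, 1616 and 1220.1 CPM with LY294002, lower, at -0.86 ± 0.11, and was at 523, 460.4 and 451 CPM in vehicle, below both drugs. Of 19 tested cytosolic heat shock genes 4 were higher (21.1%) and 10 lower (52.6%). DNAJB4, HSPB1 and HSPA4L were lower, at -0.64 ± 0.065, -0.59 ± 0.083 and -0.57 ± 0.077.

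Inflammatory mediators had no common direction, with 10 of 30 tested higher (33.3%) and 9 lower (30.0%), where 19.5% and 20.4% of all genes were. CCL2, the chemokine that draws monocytes, had 6.52, 6.18 and 5.86 CPM with thioridazine, against 30.5, 31.5 and 40.6 CPM with LY294002. IL11, a cytokine of the IL-6 family, had 44.6, 42.9 and 39.6 CPM with thioridazine, against 156, 176 and 192 CPM with LY294002. Both were lower without overlap, at -2.47 ± 0.11 for CCL2 and -2.04 ± 0.075 for IL11. IL1B and IL33, of the IL-1 family, ICAM1, an adhesion molecule, and CSF1 were higher by 1.21 ± 0.12, 1.09 ± 0.099, 0.95 ± 0.044 and 0.53 ± 0.051. Of 28 tested interferon response genes 12 were higher (42.9%) and 1 lower (3.57%), 7 of them higher by at least 2-fold. IFIT2 had 29.05, 28.9 and 23.1 CPM with thioridazine, against 5.81, 7.13 and 5.14 CPM with LY294002. IFIT3 had 53.2, 51.3 and 44.1 CPM with thioridazine, against 13.5, 15.9 and 14.4 CPM with LY294002. OASL had 19.9, 18.9 and 16.2 CPM with thioridazine, against 4.94, 5.499 and 4.68 CPM with LY294002. All 3 belong to the antiviral set, and they were higher by 2.17 ± 0.18, 1.76 ± 0.13 and 1.86 ± 0.16. STAT2 and IFIH1 were higher by 0.62 ± 0.086 and 1.01 ± 0.16, and the count of lower members, 1, was 0 when any library but LY294002 replicate 2 was left out.

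Of 25 tested early response and ERK feedback genes 10 were higher and 8 lower. EGR1, a zinc finger factor that serum switches on, had 12.6, 10.8 and 9.70 CPM with thioridazine, against 37.0, 35.1 and 33.0 CPM with LY294002, lower, at -1.66 ± 0.17. DUSP1, a MAP kinase phosphatase, had 18.4, 18.2 and 19.3 CPM with thioridazine, against 31.3, 37.8 and 40.6 CPM with LY294002, lower, at -0.97 ± 0.10. In both the groups were apart. JUNB, HBEGF and MYC were lower, at -0.70 ± 0.075, -0.85 ± 0.072 and -0.40 ± 0.062, and PHLDA1, SPRY2 and ETV5 were higher by 1.09 ± 0.040, 0.72 ± 0.060 and 0.36 ± 0.036.

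Of 27 tested nucleolar and MYC genes 6 were higher and 7 lower, near the shares of all genes (19.5% and 20.4%), with a median of 0.013. BOP1 and NOP56 were lower, at -0.53 ± 0.061 and -0.29 ± 0.049, and WDR12 was higher by 0.30 ± 0.056. Of 50 tested ribosomal protein genes 0 were higher and 9 lower (18.0%), with a median of -0.071. RPS15 and RPL12 were lower, at -0.30 ± 0.070 and -0.26 ± 0.063. That count of 9 was 17 with no filter on low counts, and it was 2, 4 and 3 without thioridazine replicate 1, LY294002 replicate 2 and LY294002 replicate 3. Of 13 transcripts of the mitochondrial genome 0 were higher and 7 lower. MT-CYB, MT-ND3 and MT-CO3 were lower, at -0.72 ± 0.15, -0.73 ± 0.14 and -0.64 ± 0.095. The smaller mitochondrial share of counts with thioridazine, given above, is computed from mitochondrial transcripts, these among them, so it is not a separate measure.

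The widest differences over all genes held several that sit in none of these lists. KCP, a secreted modulator of BMP signalling, had 15.7, 16.5 and 18.9 CPM with thioridazine, against 0.209, 0.172 and 0.192 CPM with LY294002. HKDC1, a hexokinase-like protein, had 23.9, 21.9 and 24.0 CPM with thioridazine, against 1.004, 1.12 and 0.997 CPM with LY294002. THBD, thrombomodulin, had 35.5, 35.8 and 36.5 CPM with thioridazine, against 1.97, 2.66 and 3.45 CPM with LY294002. Each was near 0 or low with LY294002 and far higher in all thioridazine libraries, with log2 fold changes of 6.44 ± 0.25, 4.48 ± 0.14 and 3.73 ± 0.10. TM4SF19, IL21R, ATP2A3, CCN3, FYB1 and NPTX1 were higher by 4.84, 3.94, 3.33, 2.96, 2.82 and 2.72, all without overlap. PSG1 at 3.08 and the pseudogene RPLP0P2 at 4.00 have near-identical relatives that can share reads, so their values are uncertain.

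At the other end, GPRC5A, a membrane protein that retinoic acid induces, had 30.9, 30.4 and 28.3 CPM with thioridazine, against 97.2, 94.6 and 107 CPM with LY294002. GABRE, a subunit of GABA receptors, had 17.5, 17.6 and 17.4 CPM with thioridazine, against 57.5, 51.1 and 54.7 CPM with LY294002. PRDM1, a transcriptional repressor, averaged 2.95 ± 0.393 CPM with thioridazine and 9.86 ± 0.269 CPM with LY294002 (SD, n = 3 each). All 3 were lower without overlap, at -1.74 ± 0.078, -1.64 ± 0.089 and -1.74 ± 0.12. YPEL1 had 1.75, 2.17 and 1.23 CPM with thioridazine, against 6.23, 8.12 and 6.36 CPM with LY294002, and 0.796, 1.03 and 0.638 CPM in vehicle. Both drugs lay above vehicle, LY294002 further, and the drugs differed by -2.01 ± 0.19. LFNG, CEND1, H4C15 and H2BC5 were lower, at -1.75, -1.69, -1.75 and -1.68, the last 2 being histone genes with near-identical copies.

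**Figure D5:**
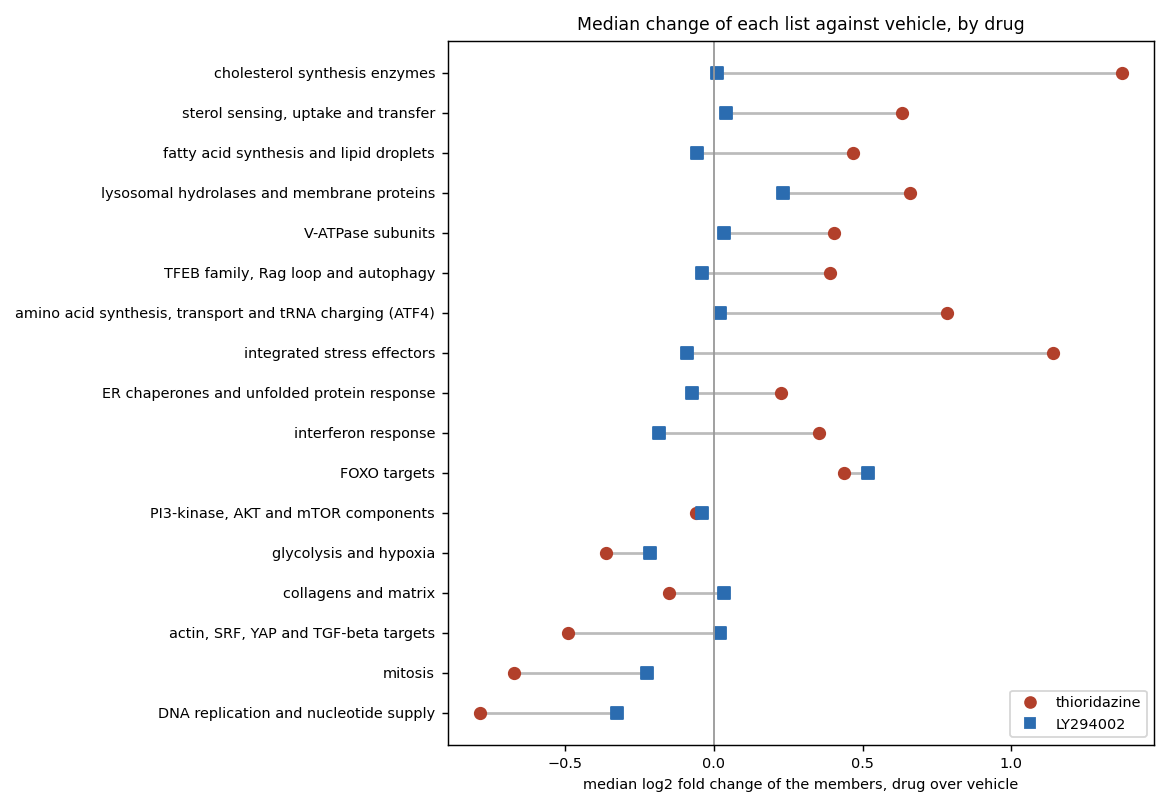
Median log2 fold change against vehicle (horizontal axis) of the members of 17 gene lists, with thioridazine as circles and LY294002 as squares joined by a line. The medians lie furthest apart for cholesterol synthesis (1.37 and 0.011) and integrated stress (1.14 and -0.091) and close together for FOXO targets (0.44 and 0.52). Both drugs share the vehicle libraries.

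Wortmannin, an irreversible PI3-kinase inhibitor of unrelated structure, gives a further comparison at the same dose and time. Against wortmannin 3383 genes (18.9%) were higher and 3554 (19.8%) lower with thioridazine, 488 (2.72%) and 336 (1.88%) of them by at least 2-fold. This comparison uses the same thioridazine libraries as the one with LY294002. Of the cholesterol enzymes 21 of 21 were higher than with wortmannin, at a median of 1.27, and of the integrated stress effectors 18 of 19, at a median of 1.27. Of 30 mitosis genes 0 were higher and 27 lower than with wortmannin, at a median of -0.38. Of 27 FOXO targets 13 were higher and 7 lower, at a median of 0.21, where the quartiles of all genes were -0.22 and 0.19. TXNIP differed from wortmannin by -1.62 ± 0.092, INSIG1 by 2.26 ± 0.052 and GDF15 by 5.47 ± 0.10. ACTA2 was -1.07 ± 0.068, as wortmannin libraries had 57.2, 57.0 and 58.1 CPM, between thioridazine and LY294002.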

How the data were processed

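RNA of SW1783 cells was sequenced as MGI directional libraries in 100-base paired reads, per the labels' protocols. The submitters' processing notes name STAR 2.7.3a and RSEM 1.3.3, besides Trim Galore 0.6.5 and FastQC 0.11.9, and the build GRCh38. The authors deposited expected counts per gene from RSEM, of which 9.48% were not whole (tolerance 1e-06), and these were rounded. Neither the annotation nor the strand setting is given in the sources used here. A gene and an overlapping antisense partner therefore cannot be told apart, and genes with near-identical copies are uncertain. The table has 279 columns. The 60 that match a sample by name were used and the other 219, which match none, were not. Positions come from GENCODE 29 on the same build and promoters from RefSeq (GRCh38.p14).

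From the counts, edgeR 4.0.16 (limma 3.58.1, R 4.3.3) fitted its quasi-likelihood model to all 60 libraries with 1 coefficient per group, TMM scaling, and a filter for expression (minimum count 10, total 15), which kept 17919 of 60675 genes. The common biological coefficient of variation was 0.0508. A gene was called at a Benjamini-Hochberg adjusted p under 0.05 over all genes tested. Errors of log2 fold changes are SE and intervals cover 95%. CPM are TMM-normalised. Library totals in the series were 19.4 to 30.9 M counts. Tests were checked on simulated data.

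Samples were grouped by their treatment labels. Comparisons were thioridazine against LY294002, each against vehicle, and thioridazine against wortmannin. The members and the 33 gene lists were chosen with earlier results of these data known. Named genes were the 15 largest differences in each direction (called, at least 5 CPM, libraries apart), up to 6 called members per list with the smallest p, all tested receptors, and in 5 lists up to 3 members called alike against vehicle that were nearest between the drugs. RRAGD, DDIT3, ATF3, PDK4, LAMP1, MCOLN1, SMPD1, the TFEB family, the FOXO targets named for their promoters, and members named for not moving with their list fall outside that rule and were chosen after their values were seen. Some genes that the rule names are not reported here. Alternatives were RLE scaling, no filter, a replicate block, the 2 groups alone, DESeq2 1.42.0, leaving out each library, and a 1.5-fold minimum.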

Additional observations from a re-analysis of the deposited data

How the results depend on the processing

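Thioridazine against LY294002 gave 3495 genes higher and 3664 lower, and each refit stayed within 1.5 times these counts. RLE scaling gave 3574 and 3551, no filter on low counts 3326 and 3204, the 2 groups alone 3699 and 3309 of 16035 genes, and DESeq2's Wald test 3404 and 3313. Leaving out 1 library gave 3146 to 3294 higher and 3064 to 3260 lower. Between 84.7% and 99.5% of the 7159 calls were shared with each refit, all in the same direction, and no refit moved the median of all genes by more than 0.018 (log2). Of the named genes, APOE, ATM, MALT1, NES, HTR2A, ADRA1D, CCNB1 and the ribosomal RPL38, RPL15, RPS2 and RPS24 lost their call under at least 1 setting, and none changed sign. The same replicate numbers occur in both groups. Deviations of libraries with the same number correlated at -0.013, 0.043 and -0.061 over genes, and those with different numbers at -0.075 to 0.092. These values show no sign of pairing, but 3 libraries a group cannot exclude it. With the numbers as a replicate block 3622 genes were higher and 3837 lower. A 1.5-fold minimum left 5 of 29 lower mitosis genes, 13 of 35 lower replication genes, 13 of 24 lower actin targets and 8 of 23 higher lysosomal genes. With 23.4 to 27.2 M counts a library, genes below the filter, 11 of the 26 receptor, channel and calmodulin genes among them, could not be compared. Effects on cell number, death and protein were not measured.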

Other observations

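Some gene families outside the lists were looked at after their values were seen, so their counts, over protein-coding members, are descriptions. A member that passes the filter on low counts only through the group where it is high has to differ, so the counts support nothing further. Of 38 tested histone genes, the packaging proteins of DNA, 0 were higher and 25 lower with thioridazine than with LY294002, where 19.5% and 20.4% of all genes were, and 17 were lower by at least 2-fold, with a median log2 fold change of -1.01. Against vehicle 3 were higher and 14 lower with thioridazine (24.6% and 23.8% of all genes), while 15 were higher and 0 lower with LY294002 (19.4% and 19.9% of all genes). Histone genes are near copies of each other, so single values are uncertain.

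Of 8 tested pregnancy-specific glycoprotein genes, which the placenta secretes, 8 were higher with thioridazine than with LY294002, all by at least 2-fold, with a median of 2.90. Levels were low, and the folds are uncertain for it. PSG1, PSG5 and PSG9 averaged 11.2, 6.72 and 4.42 CPM with thioridazine. PSG6, PSG3, PSG7, PSG8 and PSG4 averaged 0.26, 0.66, 0.84, 0.85 and 0.93 CPM. Against vehicle, with the shares of all genes as above, 7 were higher and 0 lower with thioridazine, while 0 were higher and 1 lower with LY294002. That 1 was PSG6, at 0 CPM in every LY294002 library and 0.082 CPM on average in vehicle. The PSG genes lie in a cluster of near-identical genes that can share reads. Of 14 tested alpha and beta tubulin genes, the subunits of microtubules, 1 was higher and 8 lower than with LY294002, with a median of -0.44. Against vehicle, with the same shares of all genes, 1 was higher and 9 lower with thioridazine, and 2 were higher and 8 lower with LY294002.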
